A study of Mus musculus with 7 samples.

Results

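Helper T-cell lineage genes were followed in T-cells that overexpress ORP4L, an oxysterol-binding protein related protein. The genes were chosen by symbol and comprised 3 lineage-defining transcription factors (Tbx21, Gata3 and Bcl6), the signal transducer Stat4, the cytokine gene Ifng, and the effector regulators Maf and Prdm1, 7 of the 25033 genes listed in each library. All 7 were among the 13462 genes tested. RNA sequencing libraries were available from T-cells of 4 ORP4L KI mice and 3 WT littermates, all labelled C57BL/6J and 15 months of age, with 1 library per mouse. The ORP4L KI mice carry a human ORP4L coding sequence with Flag tags and an IRES-EGFP behind a CAG promoter and a loxP-flanked stop cassette at the Rosa26 locus, and Lck-Cre, in which the Lck promoter drives Cre in the T-cell lineage, removes the stop. The KI mice were moribund when sampled, whereas the WT mice were only matched for age, so genotype and disease state cannot be told apart. Whether the WT littermates carried Lck-Cre is not stated in the sources used here. T-cells came from blood or spleen through a kit for naive CD4+ T-cells, and the tissue behind each library, and whether the RNA was taken before or after culture with IL-2 and PHA, are not stated in the sources used here.

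Naive CD4+ T-cells take up one of several helper fates when an antigen-presenting cell activates them. IL-12 acts through STAT4 to favour the Th1 fate, in which T-bet (the product of Tbx21) drives interferon gamma, while GATA-3 directs the Th2 fate and its cytokines IL-4, IL-5 and IL-13. Bcl-6 is the repressor that defines follicular helper (Tfh) cells and germinal centre B-cells, and Blimp-1, the product of Prdm1, and Bcl-6 repress each other's genes. c-Maf is shared by Th2, Th17 and Tfh cells and promotes IL-4, IL-21 and IL-10. Most of these genes are also used outside CD4+ T-cells: NK cells and CD8+ T-cells express Tbx21, Stat4 and Ifng, and B-lineage cells use Bcl6 and Prdm1.

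Total counts ranged from 12918187 to 15912921 reads in WT and from 16757959 to 19665679 in ORP4L KI. Osbp2, the mouse gene for ORP4L, had 0, 0 and 1 reads in the WT libraries and 188, 742, 155 and 443 in the ORP4L KI libraries, in the direction of the labels, although reads of the human transgene and of mouse Osbp2 cannot be told apart here. T-cell identity was present in every library, with the summed level of 10 T-cell markers between 2013 and 2757 CPM (counts set relative to a library's depth, scaled by the TMM method) in WT and between 1315 and 3893 CPM in ORP4L KI. Both Cd4 and Cd8a were detected throughout, Cd8a at 79.5 to 226 CPM, so the libraries were not of CD4+ cells alone. The libraries also held other cells: 14 granulocyte markers took 0.186% to 0.530% of counts in WT but 12.2%, 1.12%, 3.06% and 4.91% in ORP4L KI replicates 1 to 4, and all 14 were called higher. Of 6 dendritic cell markers 5 were called lower, the 6 taking 0.0437% to 0.0610% of counts in WT and 0.00938% to 0.0204% in ORP4L KI. Of 5 erythroid markers 3 were lower without overlap, 2 had positive values and 0 were called. ORP4L KI replicate 1 had the most granulocyte reads and the lowest T-cell marker sum of all 7 libraries, and replicate 2 the highest T-cell marker sum, so values are given below with and without each. Xist was at 372 CPM or more in WT replicate 1 and ORP4L KI replicates 1 and 2 and at 22.3 CPM or less in the others, so each group held mice of both sexes.

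None of the 7 lineage genes was called different between ORP4L KI and WT T-cells. The call rule asked for p under 0.01, before adjustment, together with a log2 fold change beyond 1 in either direction in edgeR's quasi-likelihood test, which 4.68% of all genes tested met and 0 of 7 lineage genes met it. At a Benjamini-Hochberg adjusted p under 0.05 the count was again 0 of 7, against 0.0223% of all genes, and DESeq2's Wald test also called 0 of 7 by either rule. At an unadjusted p under 0.05, edgeR passed 1 of 7 (Bcl6, lower), against 13.7% of all genes, and DESeq2 passed 2 of 7. The fitted log2 fold changes were above 0 for 6 of the 7, against 51.5% of all genes, and their median was 0.27, against 0.01 for all genes tested. Bcl6 was the 1 of 7 whose groups did not overlap, against 13.8% of all genes tested, and 0 of 7 had groups apart and higher, against 6.43%. For the other genes the spread among the 4 ORP4L KI libraries was wide, with SDs of 15.5 to 80.1 CPM apart from Bcl6 at 8.81 CPM, against 1.21 to 12.2 CPM in WT.

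**Figure D1:**
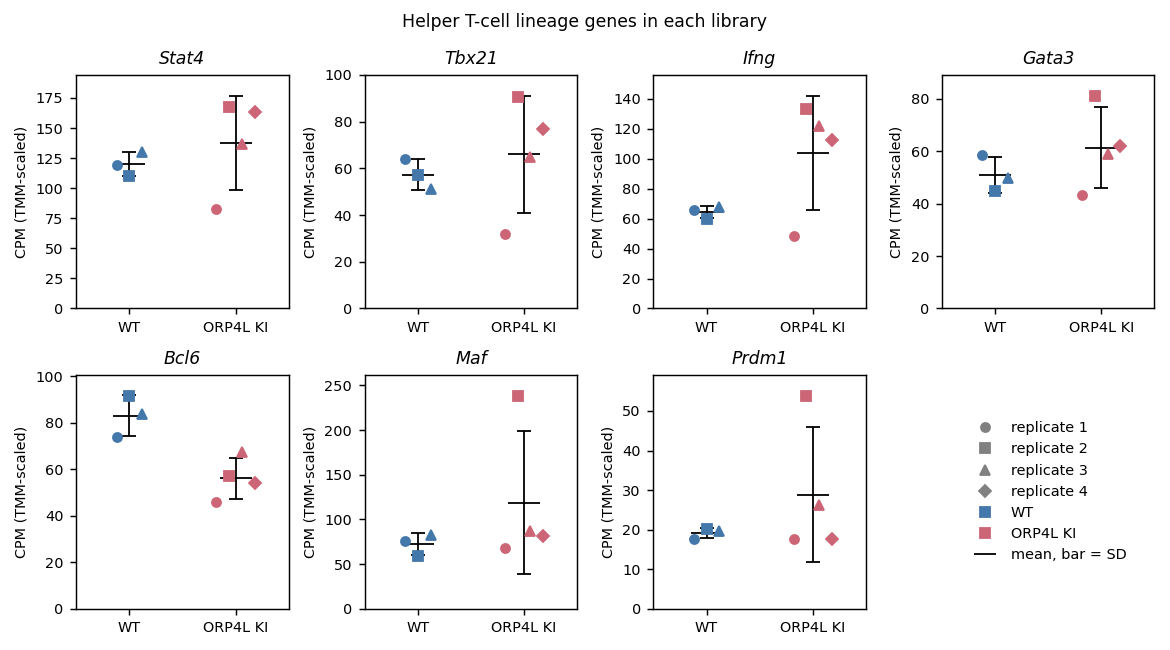
TMM-scaled CPM of each lineage gene (vertical axes from 0) in 3 WT and 4 ORP4L KI libraries, with 1 point per library, a marker shape per replicate number, and the mean with SD as a line and bars. Only Bcl6 shows 4 ORP4L KI points (45.9 to 67.3 CPM) clear of the WT points (73.9 to 91.4 CPM). ORP4L KI replicate 1 is the lowest point for Stat4, Tbx21, Ifng, Gata3 and Bcl6, and replicate 2 stands far above the rest for Maf and Prdm1.

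Stat4 (chr1:51987106-52107189, GRCm38.p6) carries the IL-12 signal to the nucleus. Its level was 119.6, 109.9 and 129.9 CPM in WT replicates 1 to 3 and 83.0, 168, 137 and 163 CPM in ORP4L KI replicates 1 to 4. Replicates 2 to 4 were thus above every WT library and replicate 1 was below them all, so the groups overlapped. The log2 fold change was 0.20 (SE 0.25, 95% interval -0.37 to 0.78, edgeR adjusted p = 0.82). It was 0.38 without ORP4L KI replicate 1 and 0.076 without replicate 2. The interval leaves room for differences in either direction.

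Tbx21 (chr11:97098007-97115331), the Th1 factor, was at 63.9, 57.1 and 51.0 CPM in WT and at 31.8, 90.4, 65.0 and 76.8 CPM in ORP4L KI. The same arrangement held, with replicate 1 lowest of all 7 libraries and the others above WT. The mean was 57.4 ± 6.46 CPM (SD, n = 3) in WT and 66.0 ± 25.1 CPM (SD, n = 4) in ORP4L KI, a log2 fold change of 0.20 (SE 0.32, 95% interval -0.51 to 0.91, edgeR adjusted p = 0.855). Its sign rested on replicate 2: without it the value was -0.0026, and without replicate 1 it was 0.43 (edgeR adjusted p = 0.361).

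Ifng (chr10:118441046-118445894) encodes interferon gamma, the Th1 cytokine and a product of T-bet. It was at 65.5, 59.8 and 67.9 CPM in WT, a tight group, and at 48.2, 133, 122 and 112 CPM in ORP4L KI. Replicates 2 to 4 were each well above WT and replicate 1 was below it. The mean was 64.4 ± 4.17 CPM (SD, n = 3) in WT and 104 ± 38.1 CPM (SD, n = 4) in ORP4L KI, and the log2 fold change of 0.69 did not pass (SE 0.32, 95% interval -0.03 to 1.41, edgeR adjusted p = 0.387). Without ORP4L KI replicate 1 the log2 fold change was 0.92 (SE 0.16, edgeR adjusted p = 0.0565), with 3 of 3 libraries above WT, and without replicate 2 it was 0.53 (edgeR adjusted p = 0.453). Neither value reaches the call rule, which asks for a log2 fold change above 1.

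Because the libraries held different amounts of T-cell RNA, the lineage genes were also set against 8 T-cell markers of the same library (Cd3e, Cd3d, Cd3g, Cd247, Cd2, Cd5, Lck and Cd28). In bulk samples, fewer cells of a type and less RNA per cell cannot be told apart. Per 1000 reads of these markers, Ifng had 30.2, 36.6 and 30.6 reads in WT and 42.2, 41.0, 55.0 and 46.5 in ORP4L KI. On this scale every ORP4L KI library, replicate 1 included, was above every WT library, a pattern that 1.67% of all genes tested showed (7.06% in either direction). None of the other lineage genes had groups apart on this scale, Tbx21 for example at 23.0 to 35.0 reads in WT and 27.8 to 31.8 in ORP4L KI. When the whole table was scaled on the 8 markers and refitted, the log2 fold change of Ifng was 0.51 and did not pass (95% interval -0.25 to 1.27, edgeR adjusted p = 0.999). Ifng is also made by CD8+ T-cells and NK cells. Cd8a differed by a log2 fold change of 0.12 (edgeR adjusted p = 0.923), and of 10 NK cell markers 5 were called lower and 1, Nkg7, was higher at a log2 fold change of 0.69 without being called. The summed level of the 10 was 657 to 861 CPM in WT and 426 to 645 CPM in ORP4L KI, with none at 0 in any library. The part of these cells in the Ifng values was not tested.

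Gata3 (chr2:9857078-9887953), the Th2 factor, was at 58.5, 44.6 and 49.7 CPM in WT and at 43.4, 81.1, 59.0 and 62.0 CPM in ORP4L KI. Replicate 1 was again below WT and the others above it, replicate 3 by less than 1 CPM. The log2 fold change was 0.27 (SE 0.23, 95% interval -0.26 to 0.80, edgeR adjusted p = 0.706), 0.40 without replicate 1 and 0.09 without replicate 2. Within a library, Tbx21 reads per Gata3 read were 1.09, 1.28 and 1.03 in WT and 0.732, 1.11, 1.10 and 1.24 in ORP4L KI. These ratios, which need no scaling between libraries, overlapped between the groups. Since the libraries also held Cd8a and NK cell marker reads, the ratios do not measure a balance of Th1 and Th2 cells.

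Without ORP4L KI replicate 1, the groups of Stat4, Tbx21, Ifng and Gata3 no longer overlapped, each higher in ORP4L KI. That is 4 of 7 lineage genes, against 9.6% of all genes with the same 6 libraries, and with Bcl6, lower, 5 of 7 had groups apart, against 19.1% in either direction. Without ORP4L KI replicate 2 instead, only Bcl6, 1 of 7, had groups apart, against 23% of all genes. None of the 4 was called with those libraries, and 4.25% of all genes were. Replicate 1 is the library with 12.2% of its counts in granulocyte markers and the lowest T-cell marker sum. It was the lowest of all libraries for each of these 4 genes, so their separations without it are not independent of one another. Per 1000 reads of the 8 T-cell markers, with replicate 1 included, Stat4, Tbx21 and Gata3 overlapped between the groups. The part of granulocyte reads in the low CPM values of replicate 1 was not tested beyond that scaling.

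Bcl6 (chr16:23965050-23988866), the Tfh and germinal centre repressor, was the one lineage gene lower in every ORP4L KI library than in any WT library. It was at 73.9, 91.4 and 83.5 CPM in WT and at 45.9, 56.9, 67.3 and 54.1 CPM in ORP4L KI. All 4 ORP4L KI values lay below all 3 WT values, as for 7.38% of all genes tested. The mean went from 82.9 ± 8.74 CPM (SD, n = 3) to 56.0 ± 8.81 CPM (SD, n = 4), a log2 fold change of -0.57 (SE 0.19, 95% interval -0.99 to -0.14). The difference was larger than the spread within either group, but did not pass after adjustment over all genes (edgeR adjusted p = 0.213). With a replicate left out it stayed between -0.67 and -0.49, and it was -0.49 without ORP4L KI replicate 1 and -0.59 without replicate 2.

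Bcl6 is also a gene of germinal centre B-cells, and the summed level of 5 markers of these cells was 23.4 to 44.4 CPM in WT and 15.7 to 18.4 CPM in ORP4L KI. Rgs13, one of the markers, was called lower and was at 0 in 1 ORP4L KI library. None of 8 B-cell markers was called and their summed levels overlapped (339 to 579 CPM in WT, 200.2 to 600.1 CPM in ORP4L KI). The part of B-lineage cells in the Bcl6 values was not tested. Per 1000 reads of the 8 T-cell markers, Bcl6 had 34.0, 56.0 and 37.7 reads in WT and 40.2, 17.5, 30.3 and 22.4 in ORP4L KI. On that scale ORP4L KI replicate 1 lay inside the WT range, so the groups overlapped, and the refitted log2 fold change was -0.63 (95% interval -1.51 to 0.26, edgeR adjusted p = 0.996).

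The sequences at the Bcl6 and Ifng starts are shown because these were the genes whose groups stood apart on one scale or the other, and because both genes are known to respond to STAT factors. STAT dimers and Bcl-6 recognise closely related sites, searched here as TTCNNNGAA on both strands in RefSeq windows of 300 bases (250 before to 50 after a start, GRCm38.p6). Of the 7 lineage genes 6 matched a window, with 8 windows in all because Bcl6 and Stat4 have more than 1 start. In the windows below, read 5′ to 3′ on the gene's strand, capitals mark each match.
Ifng, chr10:118440796-118441095 (plus strand): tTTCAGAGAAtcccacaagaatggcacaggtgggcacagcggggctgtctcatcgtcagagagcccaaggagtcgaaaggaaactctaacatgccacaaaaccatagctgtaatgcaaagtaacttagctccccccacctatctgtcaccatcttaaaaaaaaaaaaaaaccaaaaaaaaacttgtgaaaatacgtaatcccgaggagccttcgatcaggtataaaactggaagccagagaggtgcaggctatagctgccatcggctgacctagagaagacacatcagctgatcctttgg
Bcl6, upstream start, chr16:23988803-23989102 (minus strand): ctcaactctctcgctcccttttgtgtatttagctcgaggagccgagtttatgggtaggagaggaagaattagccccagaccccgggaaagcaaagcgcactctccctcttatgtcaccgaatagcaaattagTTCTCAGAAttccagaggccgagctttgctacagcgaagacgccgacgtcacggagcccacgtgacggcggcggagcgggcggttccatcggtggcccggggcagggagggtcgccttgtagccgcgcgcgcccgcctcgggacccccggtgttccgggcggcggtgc
Bcl6, downstream start, chr16:23981234-23981533 (minus strand): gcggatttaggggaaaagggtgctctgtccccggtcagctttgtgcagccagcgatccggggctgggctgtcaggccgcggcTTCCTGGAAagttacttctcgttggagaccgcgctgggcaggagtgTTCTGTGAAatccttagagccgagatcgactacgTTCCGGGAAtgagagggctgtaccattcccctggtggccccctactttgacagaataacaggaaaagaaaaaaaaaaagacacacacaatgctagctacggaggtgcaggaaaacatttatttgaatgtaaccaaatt

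The downstream Bcl6 window held 3 matches, TTCCTGGAA, TTCTGTGAA and TTCCGGGAA, at 168, 122 and 88 bases before the start. The upstream Bcl6 window held 1, TTCTCAGAA, and the Ifng window held 1, TTCAGAGAA, at its far end. At least 1 match was thus in 3 of the 8 lineage gene windows, those of Bcl6 and Ifng. Of all 32851 RefSeq mouse windows of this length, 8.30% held at least 1 match and 11, or 0.0335%, held 3 or more. The GATA site AGATAA (11.2% of all windows) and the T-box motif AGGTGT (13.7%) were in 0 of the 8 lineage gene windows, and the Maf motif TGCTGA (19.5%) was in 1, that of Gata3. A match of letters does not show that a factor bound there, and counts per gene do not tell the starts apart.

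Prdm1 (chr10:44437174-44528558), which encodes Blimp-1, was at 17.8, 20.05 and 19.6 CPM in WT and at 17.7, 53.8, 26.2 and 17.6 CPM in ORP4L KI. ORP4L KI replicate 2 was highest, replicate 3 was above WT, and replicates 1 and 4 lay just below the lowest WT library. The log2 fold change was 0.59 (SE 0.39, 95% interval -0.28 to 1.46, edgeR adjusted p = 0.584), with 0.76 without replicate 1 and 0.083 without replicate 2. None of 5 plasma cell markers tested was called.

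The mutual repressors Prdm1 and Bcl6 were compared as a ratio within each library. There were 0.240, 0.219 and 0.234 Prdm1 reads per Bcl6 read in WT and 0.385, 0.945, 0.389 and 0.325 in ORP4L KI. All 4 ORP4L KI ratios were above the WT ratios, which were close together. Of all genes tested, however, 32% had groups apart in the same direction when set against Bcl6 reads, and the ratio is given as a description.

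**Figure D2:**
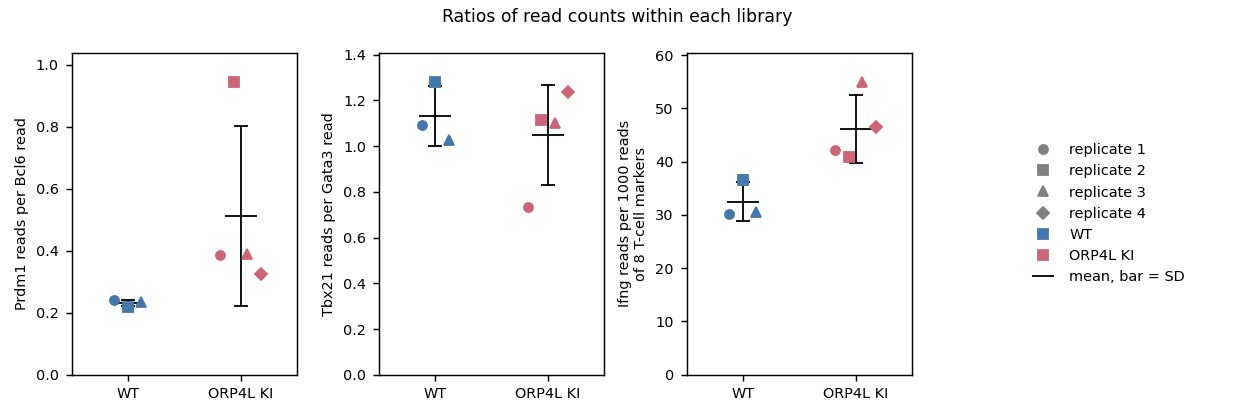
Ratios of read counts within each library (vertical axes from 0), with 1 point per library and the mean with SD: Prdm1 reads per Bcl6 read, Tbx21 reads per Gata3 read, and Ifng reads per 1000 reads of 8 T-cell markers. The ORP4L KI points lie above all WT points for Prdm1 per Bcl6 (0.325 or more against 0.240 or less) and for Ifng (41.0 or more against 36.6 or less), and overlap for Tbx21 per Gata3.

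Maf (chr8:115703253-115706894), which encodes c-Maf, was at 75.9, 58.8 and 82.4 CPM in WT and at 68.0, 238, 87.2 and 80.9 CPM in ORP4L KI. In CPM a single library set the difference: ORP4L KI replicate 2 was far above the other 6, whose values overlapped. Per 1000 reads of the 8 T-cell markers, ORP4L KI replicates 1 to 3 were above WT and replicate 4 was below it. The log2 fold change was 0.71 (SE 0.42, 95% interval -0.24 to 1.67, edgeR adjusted p = 0.532), the highest of the 7. It was 0.10 without replicate 2 and 0.90 without replicate 1. Across the 7 libraries, Prdm1 was the lineage gene nearest to Maf, and Maf the nearest to Prdm1, with a root mean square difference of 0.22 in centred log2 CPM.

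**Figure D3:**
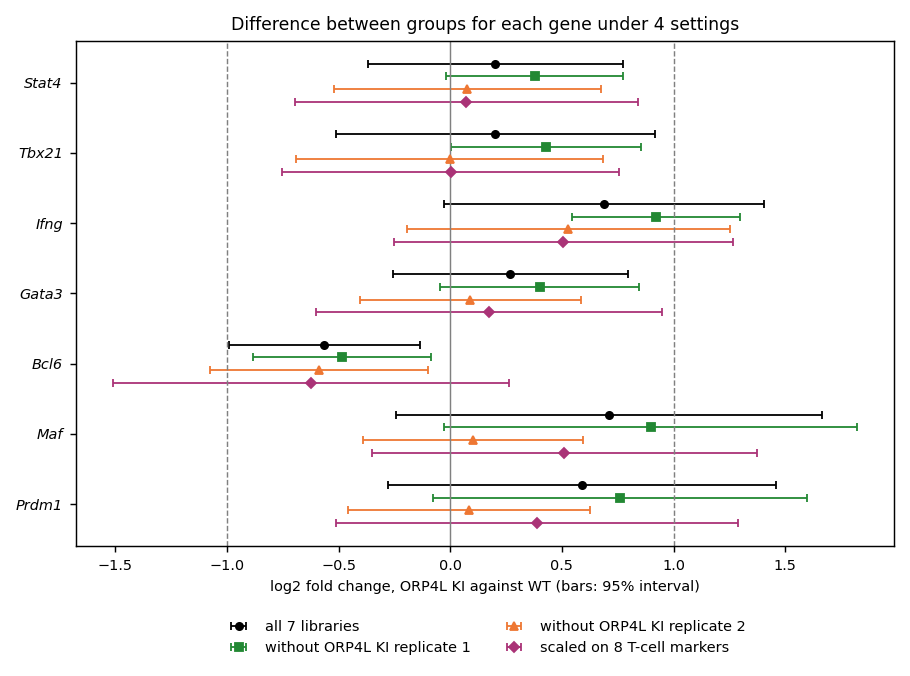
Log2 fold change of each lineage gene, ORP4L KI against WT (horizontal axis), with 95% intervals, for all 7 libraries, without ORP4L KI replicate 1, without replicate 2, and scaled on 8 T-cell markers. Dashed lines mark a log2 fold change of 1 in size. With all 7 libraries only the Bcl6 interval lies on one side of 0 (-0.99 to -0.14), and without replicate 1 those of Ifng (0.55 to 1.30) and Tbx21 (0.0040 to 0.86) lie above 0.

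Levels of different genes were compared per transcript length, with the RPKM deposited by the authors (read counts scaled for the length of the longest transcript and for depth). In WT the order was Ifng at 56.6 ± 6.48 RPKM, Stat4 at 42.6 ± 5.61, Tbx21 at 23.8 ± 2.84, Maf at 21.2 ± 4.55, Bcl6 at 18.5 ± 1.42, Gata3 at 16.9 ± 2.92 and Prdm1 at 3.89 ± 0.231 RPKM (SD, n = 3). Ifng, Stat4 and Prdm1 were apart from their neighbours in every library, while the neighbours from Tbx21 to Gata3 had overlapping ranges. In ORP4L KI, Bcl6 stood sixth at 11.4 ± 2.71 RPKM, below Gata3 at 18.8 ± 6.69 RPKM (SD, n = 4), and Gata3 was above Bcl6 in 4 of 4 libraries against 1 of 3 in WT. Ifng was above Stat4 in all 7 libraries and stood first in both groups, at 84.7 ± 37.1 RPKM in ORP4L KI (SD, n = 4). The ranges of all neighbours in the ORP4L KI order overlapped.

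**Figure D4:**
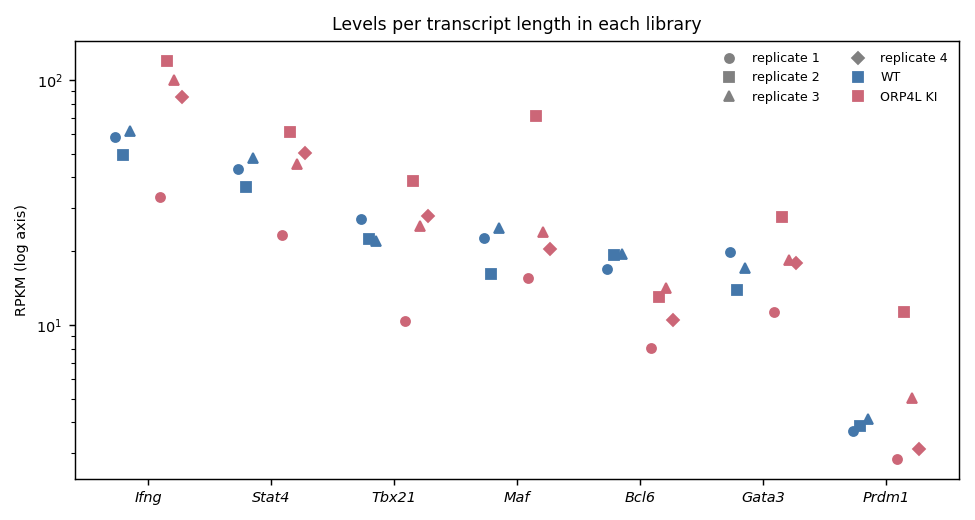
Deposited RPKM of the 7 lineage genes (logarithmic vertical axis) in each library, ordered by the WT mean, with 1 point per library. Ifng lies between 49.4 and 61.9 RPKM in WT and 33.3 and 120 RPKM in ORP4L KI, and Prdm1 is lowest in WT at 3.69 to 4.15 RPKM.

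For each lineage gene the nearest pattern over the 7 libraries was sought among 11588 genes with a mean log2 CPM of at least 1, by the root mean square difference of centred log2 CPM. For Bcl6 it was Brat1 (0.066), at 14.9 to 16.5 CPM in WT and 8.09 to 13.0 CPM in ORP4L KI. For Tbx21 it was H2-Q7 (0.074), for Stat4 Nol10 (0.070), for Gata3 Lpxn (0.084), for Maf Ncald (0.099), for Ifng Acsbg1 (0.14) and for Prdm1 Asap2 (0.18). Stat4 was the lineage gene nearest to Tbx21, Gata3, Ifng and Bcl6, but for Bcl6 at a distance of 0.45, at rank 5338 of the 11588 genes.

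The wider helper programmes were read through 6 lists with 83 genes in all, of which 81 were tested (Il5 and Il13 were too low). By the call rule 1 of the 81 was higher in ORP4L KI and 0 were lower, against 2.38% and 2.3% of all genes. The median log2 fold changes were 0.03 for 18 Th1 genes, -0.02 for 16 Th2 genes, -0.27 for 16 Th17 genes, -0.37 for 16 Tfh genes, 0.06 for 7 Treg genes and -0.10 for 8 regulators of T-cell fate, against 0.01 for all genes. In the Tfh and the Th17 list alike, 5 of 16 genes had values above 0, against 51.5% of all genes, and none was called. These medians moved with single libraries. Without ORP4L KI replicate 1 they were 0.12 for Th1, 0.14 for Th2, -0.14 for Th17, -0.11 for Tfh, 0.30 for Treg and 0.02 for the fate regulators, and 7 of 16 genes were above 0 in both the Tfh and the Th17 list. Without replicate 2 they were -0.29, -0.24, -0.42, -0.47, -0.32 and -0.22 in the same order.

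The gene called was Il10, which encodes the anti-inflammatory cytokine IL-10 and is a target of c-Maf and Blimp-1. It was at 21.4, 14.5 and 14.5 CPM in WT and at 25.2, 46.6, 31.9 and 52.3 CPM in ORP4L KI, without overlap. It rose by the call rule, with a log2 fold change of 1.22 (SE 0.30), though it did not pass after adjustment in edgeR (adjusted p = 0.104). DESeq2's Wald test gave an adjusted p of 0.0053, in a run where 784 genes had an adjusted p under 0.05. Il10 was not called without WT replicate 2 (1.12) or WT replicate 3 (1.12). The order of its ORP4L KI libraries was not that of Maf, since replicate 4 had the most Il10 and replicate 2 the most Maf. Il10 is also made by B-cells and myeloid cells. Of 11 macrophage markers 4 were called lower (428 to 757 CPM summed in WT, 209 to 330 CPM in ORP4L KI), granulocyte markers were higher as given above, and their part in the Il10 values was not tested.

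A further pair of genes was picked out after their values were seen. Eomes, the T-box factor of CD8+ T-cells and NK cells, was at 92.6, 65.9 and 101 CPM in WT and at 105, 533, 218 and 184 CPM in ORP4L KI, all above WT and replicate 2 by far the highest. Its log2 fold change of 1.59 missed the call rule (SE 0.50, edgeR adjusted p = 0.178) and was 0.95 without replicate 2. It met the rule without replicate 1 (1.84), scaled on T-cell markers (1.33), with DESeq2's size factors (1.60), without a filter (1.59) and in DESeq2's test (1.60, Wald adjusted p = 0.0225). Ahr, the aryl hydrocarbon receptor used by Th17 cells, was at 54.9, 93.3 and 102 CPM in WT and at 31.0, 52.3, 52.4 and 31.8 CPM in ORP4L KI, all below WT, with a log2 fold change of -0.99 (SE 0.29, edgeR adjusted p = 0.151), just short of the size in the rule. Ahr met the rule under 6 alternatives, with values of -1.003 to -1.22, among them without WT replicate 1 and without ORP4L KI replicate 2 or 3. In DESeq2's Wald test its value was -0.98 (adjusted p = 0.0468). The libraries also differed in cells other than T-cells. The summed level of 6 dendritic cell markers, for example, was 396 to 610 CPM in WT and 112 to 205 CPM in ORP4L KI. The part of other cells in the Ahr and Eomes values was not tested.

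Receptors and signal transducers of the lineages gave no call. Il12rb2, the signalling chain of the IL-12 receptor upstream of Stat4, had a log2 fold change of -1.08 (edgeR adjusted p = 0.411), with 1.40 CPM in ORP4L KI replicate 1 against 6.84 to 10.2 CPM in the others and 9.87 to 18.4 CPM in WT. Stat6, which carries the IL-4 signal upstream of Gata3, was at 180 to 211 CPM in WT and 143 to 173 CPM in ORP4L KI, without overlap and without passing (log2 fold change -0.35, edgeR adjusted p = 0.429). The IL-4 receptor gene Il4ra (-0.40) and the Th1 chemokine receptor gene Cxcr3 (0.42) had log2 fold changes that did not pass and overlapping groups, and were -0.18 without ORP4L KI replicate 1 and 0.11 without replicate 2, respectively. Il4 itself was near 1 CPM or below in every library.

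Among the genes that mark the other fates, the Th17 cytokine gene Il17a had a log2 fold change of 0.49 (edgeR adjusted p = 0.852). The Tfh receptor gene Cxcr5 had 0.12 and the Tfh cytokine gene Il21 had 0.46. In the Tfh list 11 of 16 genes had negative values, as in the Th17 list, against 48 of the 81 list genes tested. Foxp3, the Treg factor, had -0.36. Bach2, a repressor that restrains effector genes such as Prdm1, had -0.85 (edgeR adjusted p = 0.412), and the E-protein inhibitors Id2 and Id3 had 0.11 and -0.01. Single libraries moved several of these values: Bach2 was -0.31 without WT replicate 3, Foxp3 was -0.10 without ORP4L KI replicate 1 and -0.61 without replicate 2, and Il21 was 0.018 without ORP4L KI replicate 2 and 1.05 without WT replicate 1. None of these passed, and all had overlapping groups.

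**Figure D5:**
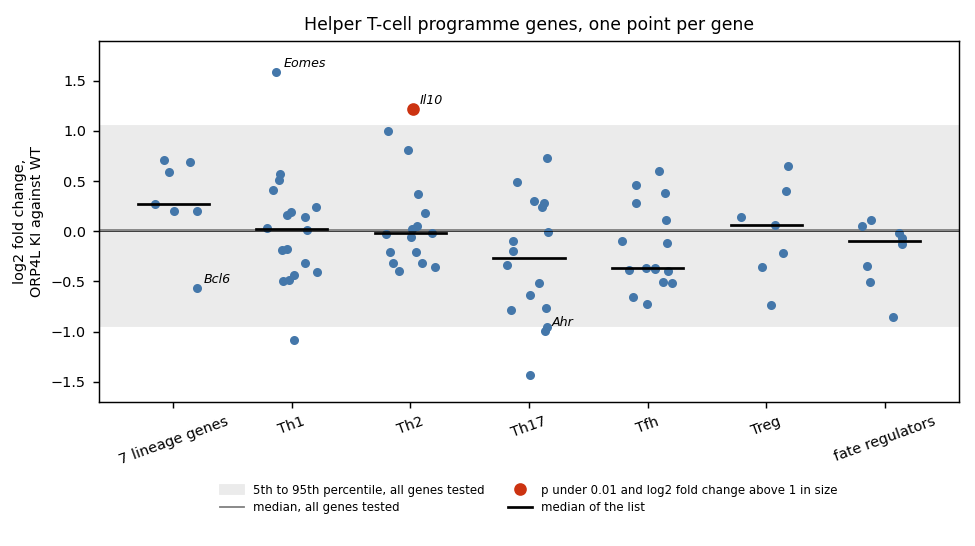
Log2 fold change, ORP4L KI against WT (vertical axis), of the 7 lineage genes and of the tested genes in 6 helper T-cell lists, with 1 point per gene, a black line at each list's median, and grey marking the median and the 5th to 95th percentile of all genes tested (-0.95 to 1.05). Il10 is the only point called. With all 7 libraries the Tfh median is -0.37 and the Th17 median -0.27, and without ORP4L KI replicate 1 they are -0.11 and -0.14.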

How the data were processed

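The authors trimmed adapters, discarded reads shorter than 17 nt, mapped the rest to a mouse mRNA database with FANSe3 (mm10 per the submitters' processing notes; version and handling of multiply mapped reads not given in the sources used here), merged splice variants and deposited raw read counts for each gene. The deposited RPKM values of the authors use the longest transcript, and served only to order levels between genes. Samples were grouped by the genotype in the labels, and no libraries agreed within sampling noise.

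The count test was that of edgeR 4.0.16 (R 4.3.3), with filterByExpr (minimum count 10, total 15), TMM scaling and the quasi-likelihood test without covariates over 13462 genes. The SE was the log2 fold change over the square root of F, and intervals used the fit's degrees of freedom. DESeq2 1.42.0 was an alternative. The study's methods name no test for these libraries; the call rule uses the thresholds of its volcano plot. The procedure was tested on simulated data. Ratios and RPKM carry no test.

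The named genes were the 7 lineage genes, Osbp2, the genes called in each list (at most 4), 13 further genes by name, and the nearest pattern of each lineage gene. Eomes, Ahr, and the marker genes named fall outside this rule, and 1 gene that it covers is not reported here. The genes and lists were chosen with earlier results of these data known. Depth limits a gene at 0 counts to 3 counts of a library total, for counting error only. Promoter windows are from RefSeq (GRCm38.p6). Alternatives were other scalings, filters, DESeq2, a replicate block, and leaving out each library.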

Additional observations from a re-analysis of the deposited data

Results flagged for a closer look

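Maf in ORP4L KI T-cells had one library far from the others: 238 CPM in replicate 2, against 68.0 to 87.2 CPM. The gap to the nearest value was 0.887 of the group's range, above Dixon's 95% critical value for 4 samples. Of 24 groups examined this was the 1 past that value, and chance alone gives about 1.2. The same library had the highest Prdm1, Eomes, Ifng, Tbx21, Stat4 and Gata3 levels and the highest T-cell marker sum. Per 1000 reads of the 8 T-cell markers it had 73.2 Maf reads, against 59.5, 39.4 and 33.5 in ORP4L KI replicates 1, 3 and 4. The part of these in the Maf value was not tested beyond this scaling.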

How the results depend on the processing

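No lineage gene was called under any alternative run, and 111 of 112 values of the 7 genes and their alternatives kept their direction and side of the threshold. The exception was Tbx21, which ranged from -0.0026 (without ORP4L KI replicate 2) to 0.43 with a library left out. The count of all genes called, 630, was 343 when scaled on 8 T-cell markers and 329 to 805 with a library left out (lowest without WT replicate 2, highest without ORP4L KI replicate 2). The split of those calls moved with scaling, from 50.8% higher to 40.3% with total counts alone, which shifted the median of all genes by -0.14, and 42.3% on T-cell markers. The count at adjusted p under 0.05, 3, was 113 with total counts alone, 44 with upper-quartile scaling, 1 on T-cell markers, 176 with no filter, 0 with at least 10 counts in every library (1549 genes at an unadjusted p under 0.05), 784 by DESeq2, and 0 to 345 with a library left out. The pathway lists' count of calls, 1, was 2 without a filter, with the stricter filter, and with total counts, upper-quartile or DESeq2 scaling, 3 under DESeq2's test, and 0 to 3 with a library left out. The cause of these differences was not tested. Replicate numbers are shared by the groups. Correlations between the groups were -0.53 to 0.15 for same-numbered libraries and -0.39 to 0.51 for the others. That gave no sign of pairing, but 3 same-numbered pairs are too few to settle whether the samples were paired. A replicate block on replicates 1 to 3 gave 466 calls against 442 with the same 6 libraries unblocked, 48 against 0 at adjusted p under 0.05, and 0 pathway calls.

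Values that reversed were Il17a (-0.28 with the block, -0.43 to 0.92 with a library left out), Cxcr5 (-0.088 on T-cell markers, -0.048 with the block, -0.11 to 0.38 with a library left out), Id2 (-0.016 with total counts, -0.018 to 0.29 with a library left out) and Id3 (-0.32 to 0.15 with a library left out). Il10 was not called on T-cell markers, with the block, or without WT replicate 2 or 3 (1.04 to 1.43 with a library left out). Ranked by CPM in place of RPKM, 2 of the 7 lineage genes kept their place. With 3 and 4 libraries, intervals of the lineage genes in the fit of all 7 span about a log2 unit or more, except that of Bcl6, so smaller differences could not be resolved. Interval widths changed with the setting: that of Bcl6 was -1.51 to 0.26 on T-cell markers, and that of Ifng was 0.55 to 1.30 without ORP4L KI replicate 1.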
